A study of Arabidopsis thaliana with 18 samples.

Results

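The AT3G25485 tract is a methylated stretch of Arabidopsis thaliana chromosome 3, at chr3:9236751-9241150 (TAIR10), over the annotated pseudogene AT3G25485 and the sequence that follows it. Its members are the 87 windows of 100 bp, placed every 50 bp, that lie wholly within these 4400 bp, out of 43887 windows in the deposited table. The stretch was selected with its measured levels in these lines known. All levels below, and all differences between lines, are therefore descriptions and carry no test. To avoid counting a base more than once, levels are given over the 44 non-overlapping windows, all of which had a value in every line. Of these windows, 37 had their centre within AT3G25485, 6 lay after it and 1 lay before it.

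DNA was taken from aerial rosette tissue 21 to 22 days after sowing and sequenced after bisulfite treatment, which converts unmethylated cytosines and leaves methylated ones. The 9 lines were epiHybrids 92, 150, 193 and 232, epiRILs 92, 150, 193 and 232, and the Columbia wild type Col-wt. EpiRILs (epigenetic recombinant inbred lines) share almost one genome sequence and differ in which chromosome segments are methylated. They are known to descend from a cross of wild type with a mutant of DDM1, a chromatin remodeller. EpiHybrids are offspring of an epiRIL, and the deposited mid-parent differences take the epiRIL of the same number and Col-wt as the parents. Each line had 2 libraries, which the authors combined into a single level for each window. The values below therefore carry no replicate error, and the spread between plants is unknown.

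In plants, cytosines are methylated in CG, CHG and CHH contexts (H is any base but G), each kept by its own enzymes, among them MET1 for CG and CMT3 for CHG sites. Transposons and pseudogenes are commonly methylated in all 3 contexts, and that methylation depends on DDM1. Some stretches that lose methylation in a ddm1 mutant regain it over generations through small RNAs, while others stay unmethylated. The table gives 1 level per window for all contexts together, as a fraction from 0 to 1, and a number of cytosines behind it. Read depth is unknown.

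The tract was largely unmethylated in epiRILs 150 and 232 and methylated in epiRILs 92 and 193 at levels above Col-wt. EpiHybrids 150 and 232 held intermediate levels, and epiHybrids 92 and 193 held those of their epiRILs. Over the 44 windows, epiHybrid 92 averaged 0.358, epiHybrid 150 0.253, epiHybrid 193 0.356 and epiHybrid 232 0.205. EpiRILs 92 and 193 averaged 0.358 and 0.351, and epiRILs 150 and 232 averaged 0.0291 and 0.0186. Col-wt averaged 0.2999. The 9 lines thus fell into 3 kinds: 5 columns at 0.2999 to 0.358, the pair of hybrids at 0.205 and 0.253, and the pair of epiRILs under 0.03.

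**Figure D1:**
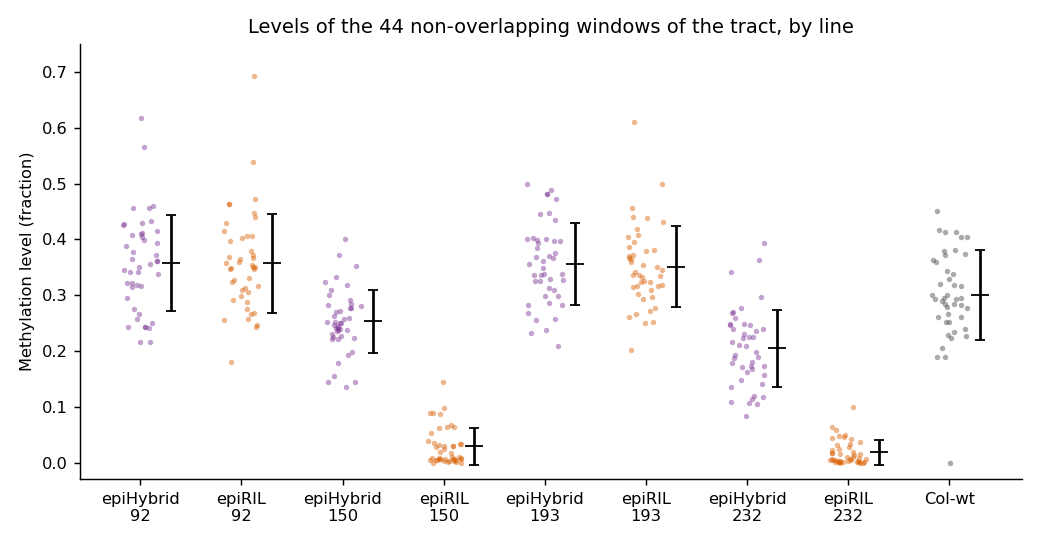
Methylation level (fraction, vertical axis) of the 44 non-overlapping windows of the tract in each line (points), with the mean and the SD over windows (bars), which is spread along the sequence and not between plants. The windows of epiRILs 150 and 232 all sit at or below 0.145, and the windows of epiHybrids 150 and 232 lie mostly between these and Col-wt.

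Single windows showed the same grouping. EpiHybrid 150 ranged over windows between 0.135 and 0.401 with a median of 0.251, and epiHybrid 232 between 0.0833 and 0.393 with a median of 0.203. EpiHybrid 150 lay between epiRIL 150 and Col-wt in 35 of 44 windows and epiHybrid 232 between its own parents in 40. In epiRIL 150 the lowest window read 0, the median 0.0134 and the highest 0.145, and in epiRIL 232 these were 0, 0.00904 and 0.0994. In Col-wt the lowest window read 0, the median 0.294 and the highest 0.451. The Col-wt value of 0 came from 1 cytosine in the first window and was the sole Col-wt window under 0.05. Apart from that window, where both epiRILs also read 0, epiRILs 150 and 232 lay under Col-wt and under each of the other 4 columns that kept the tract in 43 of 44 windows.

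EpiRIL 150 was lower than Col-wt by at least 0.2 in 38 of the 44 windows, where 2.28% of all windows of the 3 intervals were. EpiRIL 232 was lower in 41 windows, with a share of 3.33% over all windows. EpiRILs 92 and 193 were lower in 0 of 44 windows, with shares over all windows of 0.525% and 2.62%. The tract was selected with this contrast known, so nothing is read from these shares.

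Lines 92 and 193 did not match Col-wt exactly. EpiRIL 92 stood at 119.2% and epiRIL 193 at 116.9% of Col-wt, and epiHybrids 92 and 193 at 119.3% and 118.7%. These 4 columns spanned 0.351 to 0.358, a far narrower range than the gap of 0.0556 between their mean and Col-wt. Col-wt was the lowest of the 5 columns that kept the tract in 28 of 44 windows and the highest in 4. The size of the excess depended on the windows: epiRIL 92 minus Col-wt was 0.0577 over the tract, and 0.0386 in windows with at least 10 cytosines in every line. In the 20 windows with the same number of cytosines in all lines, epiRILs 92 and 193 stood at 114.2% and 115.0% of Col-wt. The other lines had 1604 to 1747 cytosines behind the 44 windows and Col-wt 1548. The part of this difference in the excess was not tested.

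Along the tract the levels rose and fell in a pattern shared by lines 92 and 193. By Pearson's r, Col-wt shared it most clearly where cytosine numbers were equal. Over the 44 windows, Pearson's r between any 2 of the 4 columns of lines 92 and 193 was 0.697 to 0.881. Against Col-wt, r was 0.0955 to 0.196. Spearman's rho, which uses ranks, was 0.3997 to 0.613 against Col-wt over the same windows. Between any 2 of the 4 columns rho was 0.686 to 0.843. In the first window Col-wt read 0 from 1 cytosine, and each of the 4 columns had its highest level there. The part of that window in the low r was not tested. In the 20 windows with equal cytosine numbers, r between Col-wt and these 4 columns was 0.817 to 0.932. The windows are neighbours and share sequence and base composition, so these values describe the profiles and carry no p. The highest Col-wt window, chr3:9238151-9238250, read 0.457 and 0.472 in epiHybrids 92 and 193, 0.440 and 0.499 in epiRILs 92 and 193, and 0.451 in Col-wt. A trough at chr3:9238951-9239050 read 0.217 and 0.233 in these epiHybrids, 0.181 and 0.202 in these epiRILs, and 0.223 in Col-wt.

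**Figure D2:**
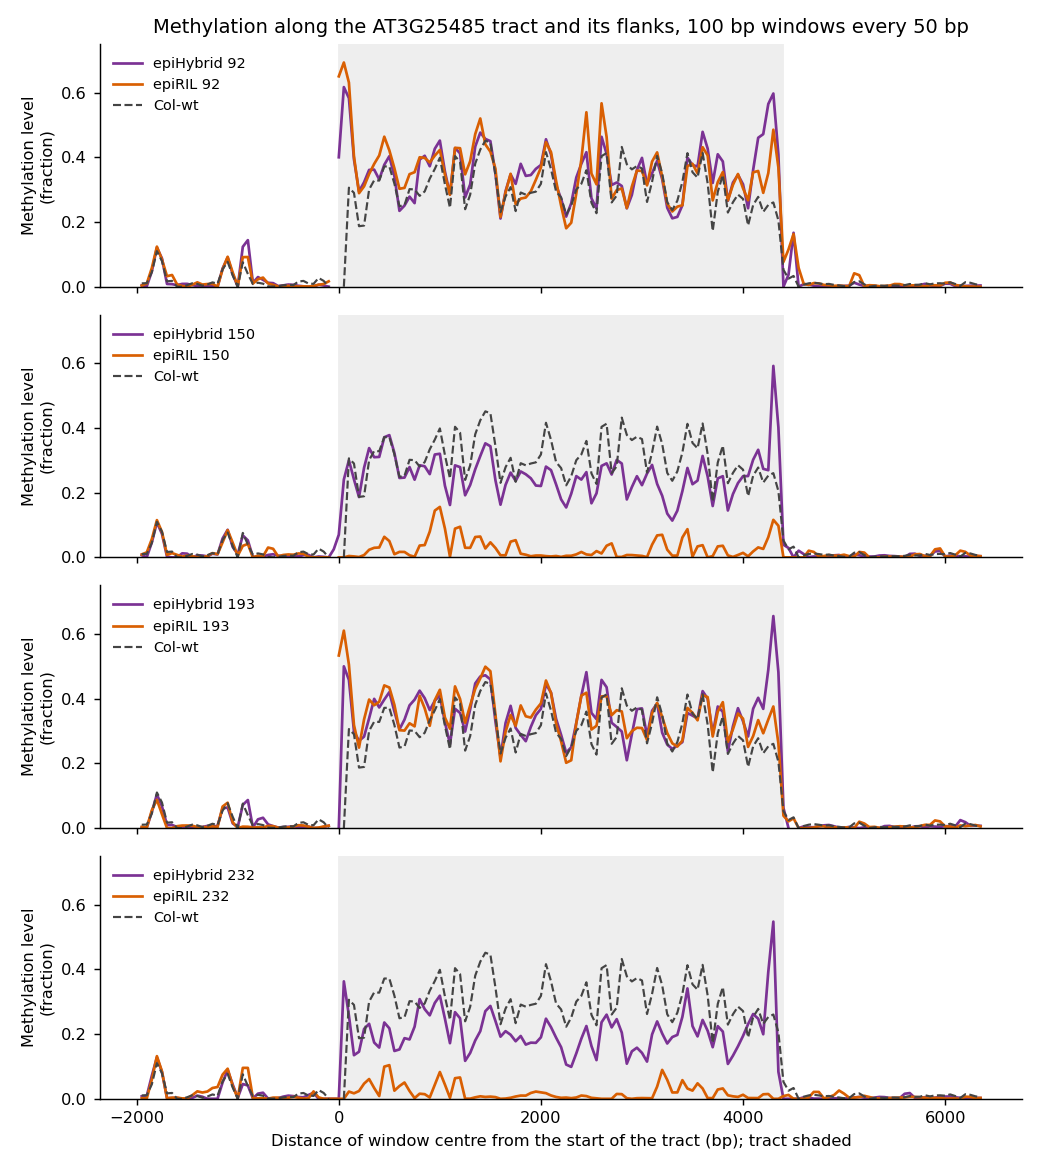
Methylation level (fraction, vertical axis) in 100 bp windows every 50 bp against the distance of the window's centre from the start of the tract (bp), with the tract shaded, for each epiHybrid, its epiRIL and Col-wt. The flanks are mostly low in every line, lines 92 and 193 stay methylated along the tract and exceed Col-wt most towards its ends, and epiHybrids 150 and 232 run mostly between Col-wt and their epiRILs. All 4 epiHybrids reach 0.547 or more in the window that starts 4250 bp into the tract.

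The borders of the tract were placed by a limit on the level. A border was set at the first and last of 3 neighbouring windows at 0.2 or more, and windows between the borders could lie under the limit. The methylated stretch began 50 bp before the tract in epiHybrid 92 and epiRILs 92 and 193, at its start in epiHybrids 150 and 193, and 250 bp into it in Col-wt. The window 50 bp before the tract rests on 1 to 2 cytosines in those first 3 lines. The stretch ended at the last window in these 6 lines. In epiHybrid 232, whose level was close to the limit, the borders lay 700 bp after the start and 200 bp before the end. The stretch between was not continuous, since 22 of the 44 windows of the tract reached 0.2 in this line. With a limit of 0.1 its borders lay at the start and 50 bp before the end, and the left border of Col-wt lay 50 bp into the tract. In epiRILs 150 and 232 no 3 neighbouring windows reached either limit.

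Just inside the right border, the window chr3:9241051-9241150 read 0.205 in Col-wt. Just outside it, chr3:9241101-9241200 overlaps that window and read 0.0524. EpiRIL 92 read 0.368 in the last window of the tract. In the next 4 overlapping windows it read 0.0767, 0.115, 0.163 and 0.0583, from 12 to 23 cytosines. Col-wt read 0.0524, 0.025, 0.0333 and 0 in those 4, from 6 to 8 cytosines. EpiHybrid 92 read 0.408 in the last window and 0, 0.0370, 0.167 and 0 in the next 4. Those 4 values rest on 13, 9, 2 and 4 cytosines. Just inside the left border, chr3:9236751-9236850 read 0.693 in epiRIL 92 and 0.610 in epiRIL 193. The window directly before the tract, chr3:9236651-9236750, has 0 cytosines and so no level in these epiRILs and Col-wt. This leaves their left border without data there. EpiHybrid 150 read 0.025 from 10 cytosines in that window, and epiHybrid 232 and epiRIL 232 read 0 from 1 each. The window chr3:9236601-9236700 read 0.0167 and 0.00741 in epiRILs 92 and 193 from 5 cytosines each.

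In the 2000 bp on either side, mean levels over non-overlapping windows were low in all 9 lines. They were 0.0130 to 0.0243 before the tract and 0.00354 to 0.0142 after it. The protein-coding gene AT3G25480, directly before the tract, averaged 0.0196 in epiHybrid 92, 0.0147 in epiHybrid 150, 0.0142 in epiHybrid 193 and 0.0139 in epiHybrid 232. EpiRILs 92, 150, 193 and 232 averaged 0.0181, 0.0136, 0.00961 and 0.0208 there, and Col-wt 0.0176. The protein-coding gene AT3G25490 after the tract averaged 0.00311 to 0.00730 over the 9 lines. In the flank before the tract epiRIL 232 was the highest line at 0.0243, and epiRIL 150 stood at 0.0191, within the range of the others. AT3G25470 (5 non-overlapping windows) and AT3G25493 (1 window) also reach into the flanks. Among the overlapping windows, chr3:9234901-9235000 in the AT3G25470 stretch read 0.121, 0.108, 0.104 and 0.128 in epiHybrids 92, 150, 193 and 232. It read 0.124, 0.115, 0.0875 and 0.132 in the epiRILs of the same numbers, and 0.110 in Col-wt.

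Methylation that remained in the depleted epiRILs was not spread evenly. Of all 87 windows, 18 read at least 0.05 in epiRIL 150 and 10 in epiRIL 232. Both lines passed 0.05 in 7 windows, which is 38.9% of those of epiRIL 150 and 70.0% of those of epiRIL 232. Neighbouring windows overlap, so the 7 windows lie in 5 separate places. Over the 44 non-overlapping windows, 10 passed in epiRIL 150 and 4 in epiRIL 232. Of these, 2 were shared, which is 20% and 50%. Over the 87 windows, r between the epiRILs was 0.449 and Spearman's rho 0.260.

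The highest residual window of epiRIL 150, chr3:9237701-9237800, read 0.156, with 0.0827 in epiRIL 232 and 0.399 in Col-wt. The highest of epiRIL 232, chr3:9237201-9237300, read 0.104, with 0.0505 in epiRIL 150 and 0.372 in Col-wt. A place near the far end, chr3:9239901-9240000, read 0.0699 in epiRIL 150 and 0.0893 in epiRIL 232, with 0.351 in Col-wt. At the other extreme, 22 of the 44 non-overlapping windows of epiRIL 150 and 23 of epiRIL 232 were under 0.01, close to the background of weakly methylated windows elsewhere (0.00565 in epiRIL 150 and 0.00467 in epiRIL 232).

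**Figure D3:**
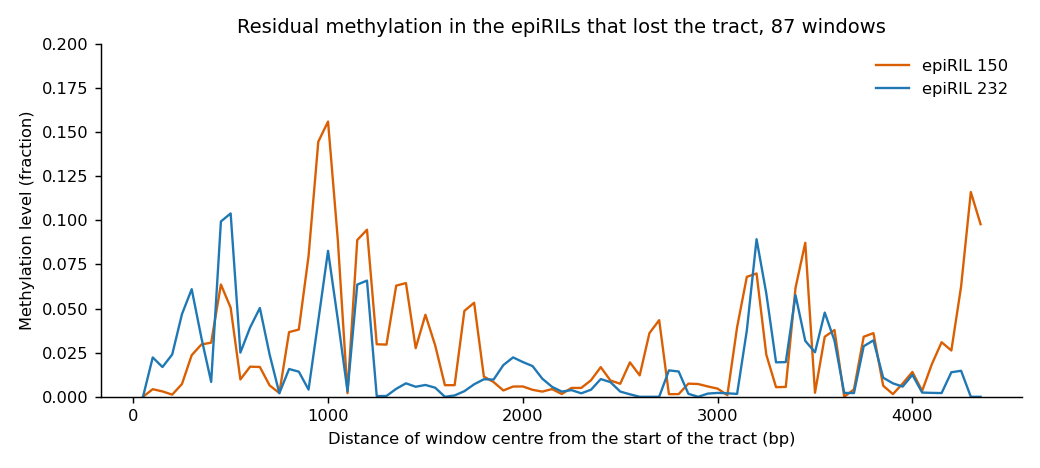
Methylation level (fraction, vertical axis, up to 0.2) of epiRILs 150 and 232 in the 87 overlapping windows, against the distance of the window's centre from the start of the tract (bp). Both lines have peaks near 0.05 to 0.156 in the first 1300 bp and again after 3000 bp, and epiRIL 150 alone rises at the far end.

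EpiHybrids 150 and 232 both exceeded the mean of their parents. EpiHybrid 150 read 0.253, above its mid-parent level of 0.165, and was above it in 41 of 44 windows. EpiHybrid 232 read 0.205, above its mid-parent level of 0.159, and was above it in 32 of 44 windows. Both hybrids were above their epiRIL in 44 of 44 windows. The position of a hybrid is its distance from Col-wt as a share of the distance between epiRIL and Col-wt, with 0 at Col-wt and 1 at the epiRIL. It was 0.172 in line 150 and 0.337 in line 232, where 0.5 is the mid-parent level.

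A window was counted as above the mid-parent level when it exceeded it by at least 0.1. This was so in 15 of 44 windows of epiHybrid 150, where 1.08% of all windows passed, and in 6 windows of epiHybrid 232, where 0.811% passed. It was so in 5 windows of epiHybrid 92 (0.984% over all windows) and 3 of epiHybrid 193 (1.09%). The tract was selected with these values known, so the counts are a description. In windows with at least 10 cytosines in every line, the counts were 12 in epiHybrid 150, 4 in epiHybrid 232, 2 in epiHybrid 92 and 0 in epiHybrid 193.

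The hybrids' levels can also be read against the other lines that kept the tract. With the mean of epiHybrids and epiRILs 92 and 193 (0.356) in place of Col-wt (0.2999), epiHybrid 150 exceeded the mid value by 0.0610, against 0.0889 with Col-wt. EpiHybrid 232 exceeded it by 0.0179, against 0.0457 with Col-wt. It was then above the mid value in 26 windows and below it in 18. The position became 0.313 in line 150 and 0.447 in line 232. EpiHybrid 150 therefore stayed above the middle under both levels, in 41 of 44 windows each time, whereas the excess of epiHybrid 232 was less than 0.5 of that with Col-wt when set against lines 92 and 193.

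In absolute level, epiHybrids 150 and 232 differed from each other more than their epiRILs did. EpiHybrid 150 was 0.0484 above epiHybrid 232 on average, and higher in 36 of 44 windows. EpiRIL 150 was 0.0105 above epiRIL 232. These epiRILs averaged 0.0291 and 0.0186, low levels that leave little room for an absolute gap. The other 4 columns that shared a like level spanned 0.351 to 0.358, and the 5 with Col-wt spanned 0.2999 to 0.358, so the gap between the hybrids was wider than the first range and narrower than the second. No replicate error is available to test it.

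The hybrids' share of the Col-wt level changed along the tract, and their share of the level in the other lines changed less. The tract was divided into 4 sections of 1100 bp. EpiHybrid 150 stood at 101.5, 76.9, 72.1 and 90.7% of Col-wt in the first to last section, and epiHybrid 232 at 82.7, 61.9, 54.2 and 77.9%. Both were nearest to Col-wt at the ends. The first section holds the window where Col-wt read 0 from 1 cytosine, which lowers its Col-wt mean. EpiHybrids 150 and 232 read 0.241 and 0.363 in that window. Against the mean of lines 92 and 193, epiHybrid 150 stood at 73.0, 69.2, 69.9 and 72.8%, and epiHybrid 232 at 59.5, 55.6, 52.5 and 62.6%. Read this way the range over sections narrowed to 3.89 percentage points in epiHybrid 150, against 29.4 with Col-wt, and to 10.02 points in epiHybrid 232, against 28.5 with Col-wt.

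The same sections set Col-wt apart from lines 92 and 193. The mean of those lines was 139.0, 111.3, 103.1 and 124.6% of Col-wt in the first to last section. In the 6 windows after AT3G25485 it was 144.5%, against 110.2% in the 37 windows within the pseudogene. The first 2 non-overlapping windows rested on 12 to 17 and on 41 cytosines in the other lines, against 1 and 24 in Col-wt. The last 2 rested on 6 to 26 and on 8 to 23 cytosines in the other lines, against 13 and 15 in Col-wt. The part of these numbers in the levels was not tested.

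**Figure D4:**
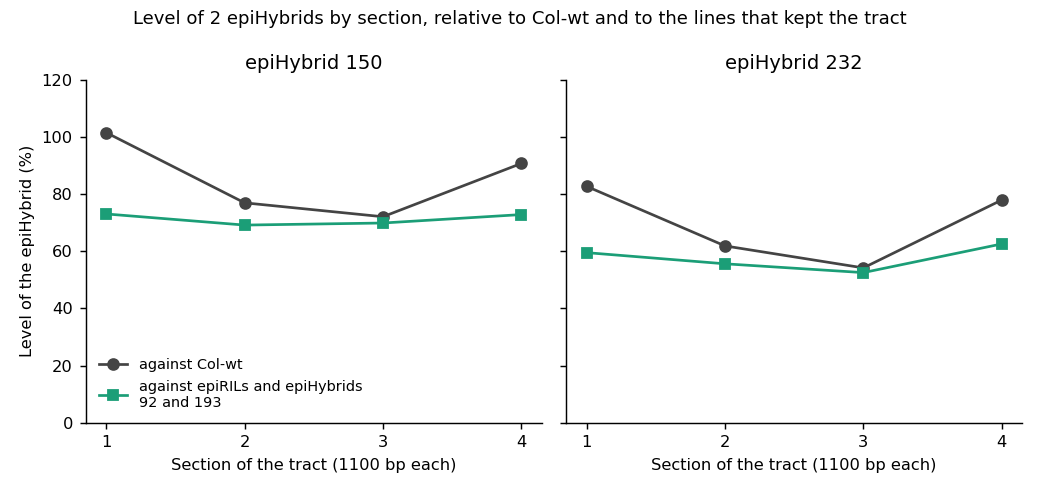
Mean level of epiHybrid 150 (left) and epiHybrid 232 (right) in each 1100 bp section of the tract, as a percentage of Col-wt (circles) and of the mean of epiRILs and epiHybrids 92 and 193 (squares). The circles span 72.1 to 101.5% in epiHybrid 150, and its squares stay between 69.2 and 73.0%. The first section holds a window where Col-wt read 0 from 1 cytosine, which raises the circles there.

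The last bases of the tract stood out in the hybrids. A window there, chr3:9241001-9241100, was singled out after its values were seen. It read 0.597 in epiHybrid 92, 0.592 in epiHybrid 150, 0.655 in epiHybrid 193 and 0.547 in epiHybrid 232. EpiRILs 92, 150, 193 and 232 read 0.485, 0.116, 0.376 and 0, and Col-wt read 0.260. Each epiHybrid was thus above both its parents here. The values rest on 27, 18, 28 and 16 cytosines in epiHybrids 92, 150, 193 and 232, 28 in each epiRIL and 23 in Col-wt. In the next window, chr3:9241051-9241150, epiHybrids 92, 150 and 193 read 0.408, 0.401 and 0.482, again above both their parents. EpiRILs 92, 150 and 193 read 0.368, 0.0978 and 0.262 there, and Col-wt 0.205. EpiHybrid 232 read 0.0833 from 8 cytosines, below Col-wt, and epiRIL 232 read 0. In the 6 windows after AT3G25485, epiHybrid 150 averaged 0.272, epiRIL 150 0.0347 and Col-wt 0.240, and epiHybrid 232 averaged 0.204, epiRIL 232 0.00598 and Col-wt 0.240.

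Where both parents kept the tract, the hybrids averaged closer to their epiRIL than to Col-wt. EpiHybrid 92 exceeded epiRIL 92 by 0.000353 on average, with 22 of 44 windows above it, and exceeded Col-wt by 0.0580, with 34 of 44 above. EpiHybrid 193 exceeded epiRIL 193 by 0.00521, in 22 of 44 windows, and Col-wt by 0.0560, in 35 of 44. The hybrids therefore exceeded their mid-parent levels by 0.0292 in line 92 and 0.0306 in line 193. In the 20 windows with equal cytosine numbers these values were 0.0165 and 0.0161.

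The tract is one of 52 runs of at least 5 windows at 0.2 or more in Col-wt, and one of 25 in its interval. By that definition it spans 43 windows, the sixth largest number of the 52, and its Col-wt level of 0.307 ranked 37 of 52. It was among 5 tracts of the interval lost (under 25% of Col-wt) in epiRIL 150 and among 11 lost in epiRIL 232. In epiRIL 150 the other 4 lost tracts were among the 9 that lie before it, and 0 of the 15 after it were lost. In epiRIL 232, 6 of the 9 before and 4 of the 15 after were lost.

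Its neighbours on the left shared its pattern in part. The nearest tract before it, 4000 bp away over the protein-coding gene AT3G25460, held 61.5% of Col-wt in epiRIL 150 and 57.6% in epiRIL 232. The next, 5700 bp away over the pseudogene AT3G25450, held 7.03% and 1.74%. A further run over AT3G25450, 8800 bp away, held 7.33% and 7.61%. On the right the nearest tract lay 80900 bp away and held 97.2% in epiRIL 150 and 84.7% in epiRIL 232. In the 712 windows between, 12 were at 0.2 or more in Col-wt, and the mean level was 0.0172 in epiRIL 150, 0.0149 in epiRIL 232 and 0.0211 in Col-wt.

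**Figure D5:**
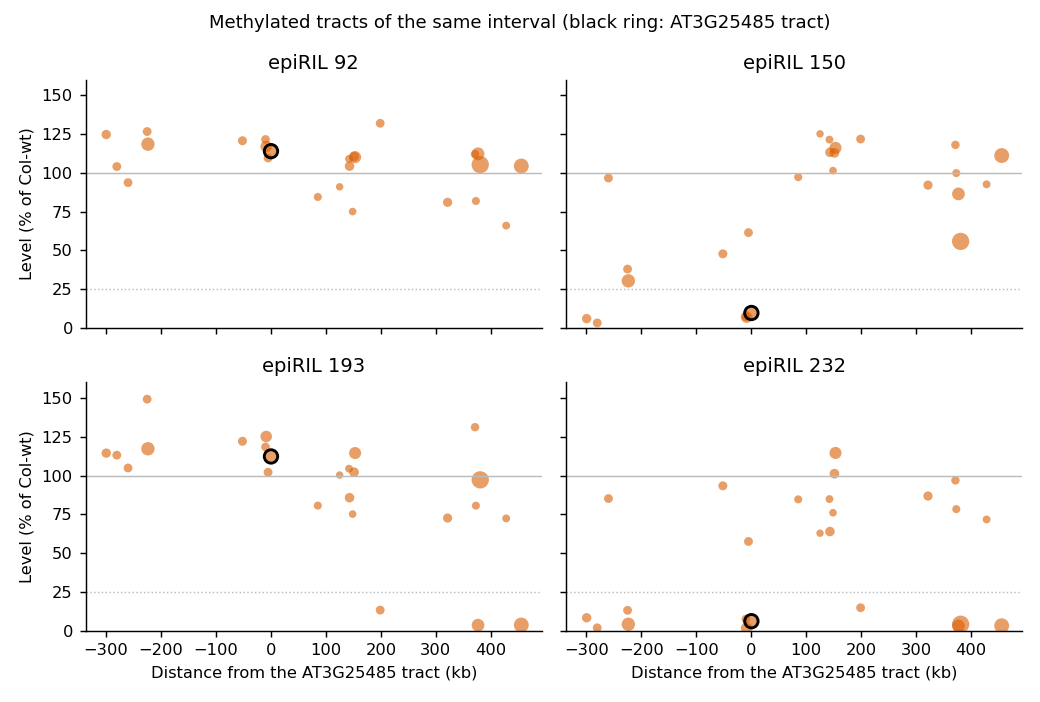
Level of each of the 25 methylated tracts of the interval as a percentage of Col-wt in epiRILs 92, 150, 193 and 232, against its distance from the AT3G25485 tract (kb), with larger points for tracts of more windows. The solid line marks 100%, the dotted line the 25% limit for a lost tract and the black ring the AT3G25485 tract, after which epiRIL 150 has no tract under the dotted line.

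Among the 14 tracts lost in epiRIL 150, epiHybrid 150 held 82.7% of Col-wt in this one, the second highest share (range 58.0 to 88.5%, median 68.7%). Among the 19 tracts lost in epiRIL 232, epiHybrid 232 held 65.6%, the seventh highest (range 36.8 to 90.8%, median 60.8%). Of 13 tracts lost in both epiRILs, the hybrid's share was larger in line 150 than in line 232 in 11. These ranks describe a tract chosen with its levels known.

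The annotated genes most like the tract over the 9 lines were picked by 1 measure. Likeness was the root mean square difference between levels relative to Col-wt, over 29 genes with at least 5 methylated windows. The closest was the pseudogene AT3G24680 (difference 0.0471, Pearson's r 0.994), followed by the pseudogene AT3G25450 (0.0508, r 0.994) and the protein-coding genes AT3G24514 (0.0683, r 0.987) and AT3G24542 (0.0860, r 0.991). The fifth was the pseudogene AT3G24675 (0.139, r 0.970), which was less alike in line 150. EpiHybrids 150 and 232 held 95.1 and 78.5% of Col-wt in AT3G24675, and epiRILs 150 and 232 held 43.3 and 6.93%. In AT3G24680, epiHybrids 150 and 232 held 77.4 and 58.5% of Col-wt, and epiRILs 150 and 232 held 9.72 and 4.19%. The tract was compared over its 41 non-overlapping windows at 0.2 or more in Col-wt. In these, the hybrids held 81.0 and 64.0%, and the epiRILs 9.92 and 5.99%.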

How the data were processed

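The authors deposited 1 table of methylation levels as a fraction from 0 to 1, with 1 column per line, in 100 bp windows every 50 bp in 3 intervals. Reads were handled with BS-Seeker2, Bowtie2 and cutadapt on TAIR10, per the submitters' processing notes, which give no versions. The way libraries and contexts were merged is not stated in the labels or headers. Per the file headers and values, the deposited numbers beside the levels count cytosines, not reads, and are 0 exactly where a level is missing. The deposited differences from mid-parent levels matched those recomputed here within 5.55e-16.

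Windows with a level in all 9 lines were used, every second one (19614 in all, 44 in the tract). Means weigh windows equally. With 1 value per line and a stretch picked on these values, 0 tests were run. The members, limits and gene lists were chosen with earlier results of these data known. The genes named were AT3G25485, those reaching into the flanks, and the 5 most alike over the lines. AT3G25460, outside this rule, was named as the nearest methylated tract after its values were seen. Genes came by window centre from the RefSeq annotation of TAIR10.1, used for names and biotypes. Scripts ran in Python 3.11.15 with numpy 2.4.6 and pandas 2.3.3, and were tested on simulated data.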

Additional observations from a re-analysis of the deposited data

Results flagged for a closer look

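EpiRILs differed in the direction of their departure from Col-wt over the tract, with Col-wt shared by all 4 differences. EpiRILs 92 and 193 were above Col-wt, with mean differences of 0.0577 and 0.0508, and epiRILs 150 and 232 were below it, with -0.271 and -0.281. Each line has 1 value, so the difference between lines was not tested.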

How the results depend on the processing

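No paired analysis was possible because the table holds 1 column per line and so no replicate numbers; for the same reason no replicate could be left out. A level, difference or position counted as moved when it changed by more than its SD over the 4 sections, which is spread along the sequence. Of 149 such values under the alternatives, 143 did not move, 6 moved and 0 changed sign. The limit was wide for small values. For epiHybrid minus mid-parent in line 92 it was 0.0312, where the value itself was 0.0292. In line 232 a fall of this difference from 0.0457 to 0.0179 also counted as not moved. The count of 143 therefore does not show that small differences held. The median over windows put epiRIL 150 at 0.0134, against a mean of 0.0291. For lines 150 and 232, Col-wt was replaced by the mean of Col-wt and epiRILs 92 and 193. EpiRILs 150 and 232 were below that level by a difference of -0.307 and -0.317, and epiHybrid 232 minus mid-parent was 0.0276. For lines 92 and 193, the epiRIL being compared was left out of that mean. EpiRILs 92 and 193 were above the level so formed by 0.0323 and 0.0220, and epiHybrid 193 minus mid-parent was 0.0162. With the mean of the 4 other columns that kept the tract, an alternative chosen after seeing the data, epiRIL minus wild type was -0.326 in line 150 and -0.337 in line 232, and epiHybrid 150 exceeded the mid value by 0.0610.

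Counts moved with their limit by construction. With a limit of 0.3 in place of 0.2, epiRIL 150 was lower in 15 windows and epiRIL 232 in 13, and with 0.1 epiRILs 92 and 193 were lower in 1 each. EpiHybrids 92, 150, 193 and 232 were above the mid-parent level by 0.05 in 11, 35, 11 and 17 windows, and epiHybrids 92, 150 and 232 by 0.15 in 2, 8 and 2. With at least 10 cytosines in every line, counts above were 2 in epiHybrid 92 and 0 in epiHybrid 193. That setting leaves out the first and the last 2 non-overlapping windows. In the 20 windows with equal cytosine numbers, also chosen after seeing the data, epiRILs 150 and 232 were lower in 20 and 20, and epiHybrids 92, 150, 193 and 232 above in 1, 6, 0 and 1. Both settings count fewer windows than the 44 of the tract, which lowers a count by itself. Any other cause of the lower counts above was not tested. Levels at both ends of the tract rest on few cytosines, and read depth is unknown.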
